A study of Mus musculus with 17 samples.

Results

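Dopaminergic periglomerular neurons are interneurons of the outermost cell layer of the olfactory bulb, where they surround the glomeruli that receive the axons of the nose. The 10 genes described here were chosen by name as genes of dopamine synthesis, transport and fate in these cells: Th, Ddc, Gch1, Slc18a2, Slc6a3, Aldh1a1, Nr4a2, Etv1, Meis2 and Klf7. Their probes were found by gene name, with older symbols traced through the probe's accession, and both Meis2 probes carried the older name Mrg1 in the earlier annotation. Of the 41174 probes on the array 14 had one of these names, and a further Klf7 probe had it only in the older annotation. All 10 genes were among the 26447 genes, of 30030 listed, that passed the filter on dim probes. The samples were GFP-positive cells sorted from CD1 mice that were electroporated in vivo at postnatal day 1. Each of 17 two-colour arrays held 1 sample of the dorsal wall lineage of the subventricular zone (Cy3) and 1 of the lateral wall lineage (Cy5). The times after electroporation were 8 hours (2 arrays), 1 day (3), 2 days (2), 4 days (3), 7 days (3) and 14 days (4). The 7 arrays of 7 and 14 days are called late here, and the 7 arrays of 8 hours, 1 day and 2 days early. The labels call the arrays biological replicates. The number of animals behind a sample and the promoter that drove GFP are not given in the sources used here.

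Dopamine is made from tyrosine by tyrosine hydroxylase (Th), which needs the cofactor tetrahydrobiopterin, and then by aromatic amino acid decarboxylase (Ddc). A vesicular transporter loads it into synaptic vesicles, and a plasma membrane transporter takes it back up. In the olfactory bulb the dopaminergic cells also make GABA, are added throughout life from progenitors in the ventricular walls, and express Th in a manner that depends on activity arriving from the nose. The dorsal wall is known as a source of many of them.

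Levels are given as log2 fluorescence intensities after normalization. Each belongs to 1 probe, so levels of different genes are not set against each other. The array probes of Th, Gch1 and Nr4a2 are printed because wide differences between single arrays rested on them. They are given as the scanner files have them, 5′ to 3′, with coordinates on mm9, and each is a stretch of the gene's sense strand.
Th probe (chr7:150079917-150079976, minus strand): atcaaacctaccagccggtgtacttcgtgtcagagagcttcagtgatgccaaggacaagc
Gch1 probe (chr14:47788897-47788956, minus strand): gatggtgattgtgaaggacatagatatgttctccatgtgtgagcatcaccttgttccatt
Nr4a2 probe (chr2:56960699-56960758, minus strand): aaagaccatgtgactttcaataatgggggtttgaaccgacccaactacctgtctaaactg

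The Th probe was spotted 10 times on each array and the probes of the other 9 genes once. Promoter sequences of RefSeq (GRCm38.p6), from 250 bases before a transcription start to 50 after it, were matched for all 10 genes, with 13 starts. The palindrome TGACGTCA, the cAMP response element through which activity is known to act on Th, was found for Th and for Slc18a2, the vesicular monoamine transporter, and for 0 of the other 8 genes. It was in 1.79% of all 32851 promoters given by RefSeq. It is in capitals in both sequences, and its first base lay 45 bases before the start in Th and 4 bases before it in Slc18a2.
Th promoter (chr7:142899946-142900245, minus strand): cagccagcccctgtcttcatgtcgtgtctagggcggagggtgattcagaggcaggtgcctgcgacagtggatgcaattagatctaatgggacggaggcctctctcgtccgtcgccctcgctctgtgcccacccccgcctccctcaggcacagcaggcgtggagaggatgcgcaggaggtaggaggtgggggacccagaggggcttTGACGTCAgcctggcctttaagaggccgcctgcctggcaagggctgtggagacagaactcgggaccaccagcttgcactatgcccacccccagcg
Slc18a2 promoter (chr19:59260628-59260927, plus strand): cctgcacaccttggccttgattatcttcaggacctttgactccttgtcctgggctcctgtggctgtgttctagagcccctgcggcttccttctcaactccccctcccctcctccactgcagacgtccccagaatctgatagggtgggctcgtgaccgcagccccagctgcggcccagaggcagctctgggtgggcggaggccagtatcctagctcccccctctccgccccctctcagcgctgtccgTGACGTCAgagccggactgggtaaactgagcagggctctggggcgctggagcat

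Other short motifs were searched as letters on both strands. AAAGGTCA, the site that Nr4a2 is known to bind as a monomer, was in 1 of the 13 promoters, one of Ddc (1.51% of all promoters). TGACAG, the core of a MEIS site, was found for Ddc and Aldh1a1 (19.2% of all), and CCGGAA, an ETS core, was in 0 of the 13 (14.9% of all). GGGCGG, a GC box, was found for 6 genes, Th, Slc18a2, Slc6a3, Gch1, Nr4a2 and Klf7 (35.7% of all). These matches describe letters only, since binding was not measured here.

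The share of probes well above background was 40.95 to 76.7% per dorsal and 56.4 to 79.4% per lateral sample. An array of 1 day (replicate 1) and one of 14 days (replicate 2) were unlike the rest, with a median r to the other arrays of 0.69 and 0.77 across genes, which are not independent replicates. All arrays of 1 day lay on a slide of their own and so did all of 14 days, so these times and their slides cannot be told apart, while the other 3 slides each held several times. The labels name the RNA of the dorsal channel polyA and that of the lateral channel total. Dyes were never swapped, so a constant dye effect of a probe adds to a wall difference and cancels in a change with time. Neuroblast markers were well represented: the mean of 6 (Dcx, Tubb3, Sox11, Stmn2, Dlx5 and Nrep) was 14.5 to 15.1 in the dorsal and 15.2 to 15.3 in the lateral samples of 4 days. The mean of 6 microglia markers also ran from 8.57 to 14.7 in dorsal and from 7.47 to 15.6 in lateral samples.

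The first question was how the genes changed with time within each wall. In the dorsal wall 1 of the 10 genes, Etv1, rose between early and late samples. In the lateral wall 3 rose, all of them transcription factors: Nr4a2, Etv1 and Meis2. Of the 6 genes of dopamine synthesis, transport and aldehyde oxidation 0 passed limma's test in either wall, with an unadjusted p under 0.05 for 1 of them in the dorsal wall (3773 of 26403 genes tested) and 3 in the lateral wall (4137 of 26403). The highest single sample of Th was one of 14 days in each wall. The 1 of 10 stands against 0.92% of all genes called higher in the dorsal wall (2.94% in either direction and 2.02% lower), and the 3 of 10 against 2.59% in the lateral wall (4.84% in either direction). The median late minus early difference of the 10 genes was 0.98 in the dorsal wall, against 0.02 for all genes tested, and 1.38 in the lateral wall, against 0.05 for all genes tested. Differences are log2 ± SE between the mean of the late time means and the mean of the early time means, tested with limma over 26403 genes with Benjamini-Hochberg adjustment, where an adjusted p under 0.05 counts as a call. These samples are bulk RNA, in which fewer cells of a type and less RNA per cell cannot be told apart.

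**Figure D1:**
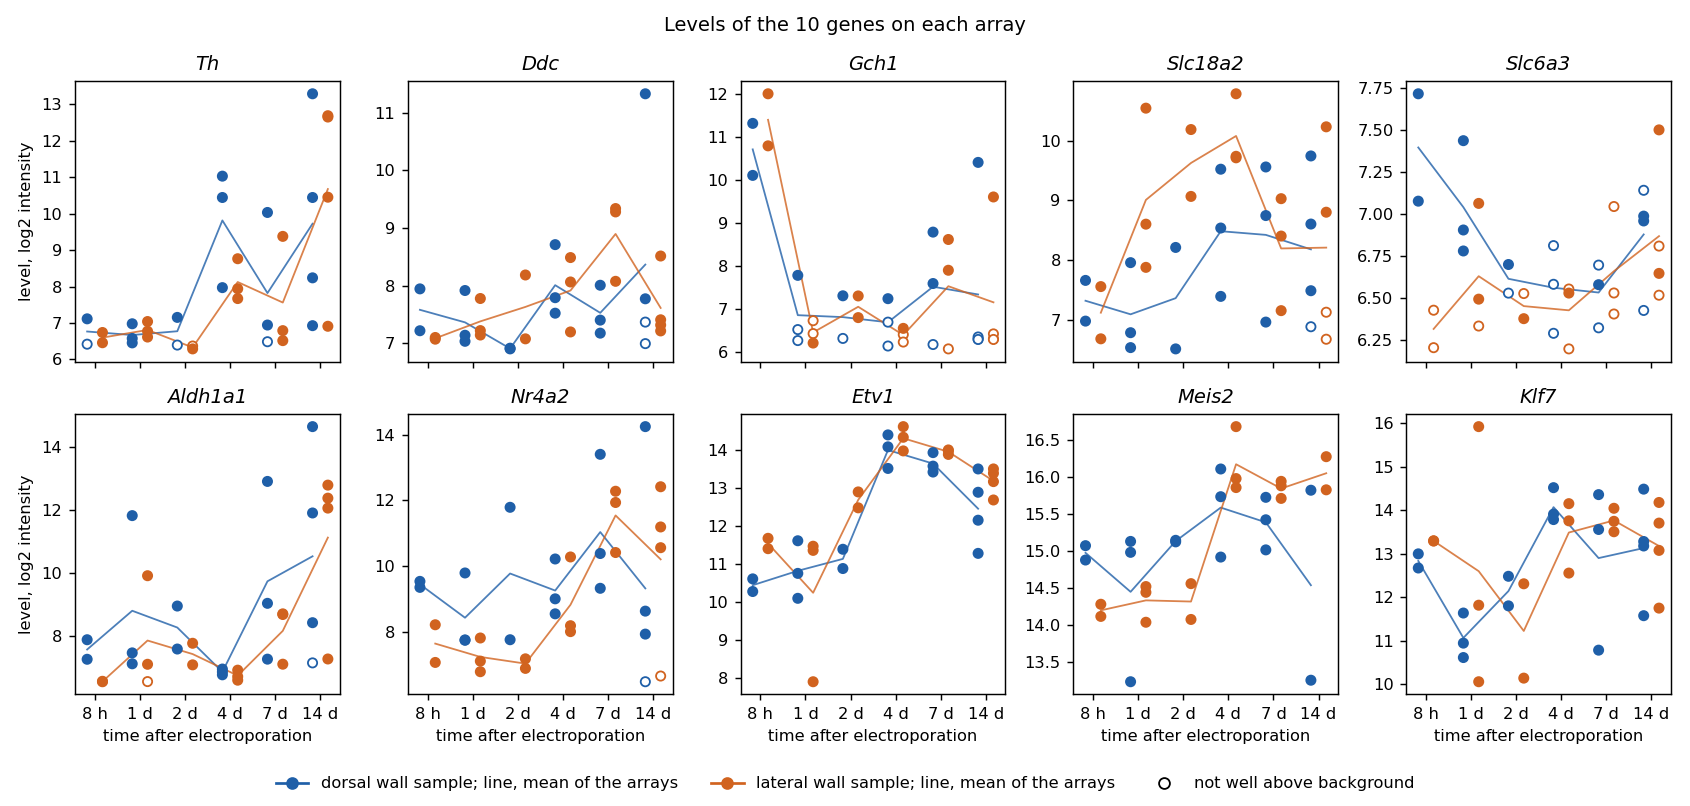
Log2 level of each of the 10 genes (1 panel each) in every sample against time after electroporation, with dorsal left of lateral; filled points were well above background, open points were not, and lines join the means of the arrays. Etv1 lay at 13.51 or higher in every sample of 4 days, Gch1 was high in all samples of 8 hours, and Th at 14 days ran from 6.93 to 13.29 in dorsal and from 6.91 to 12.69 in lateral samples.

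Th, the rate-limiting enzyme of dopamine synthesis, was low in every early sample and then varied widely. Dorsal levels were 6.42 and 7.12 (8 hours), 6.98, 6.58 and 6.46 (1 day), 6.40 and 7.15 (2 days), 10.44, 7.97 and 11.03 (4 days), 10.03, 6.49 and 6.95 (7 days), and 6.93, 10.44, 8.24 and 13.29 (14 days). Lateral levels were 6.74 and 6.46 (8 hours), 7.04, 6.62 and 6.78 (1 day), 6.37 and 6.29 (2 days), 7.94, 8.76 and 7.67 (4 days), 6.79, 6.52 and 9.38 (7 days), and 6.91, 12.69, 10.45 and 12.65 (14 days). Every sample of 4 days lay above all early samples of its wall, but at 7 and 14 days low and high samples stood side by side. At 14 days replicate 1 had Th near its early level in both walls, and replicates 2 to 4 were above every early sample in both.

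Late minus early, Th differed by 2.04 ± 0.91 in the dorsal (limma, adjusted p = 0.332) and 2.54 ± 0.80 in the lateral wall (adjusted p = 0.0996). Of the 7 late samples 4 lay above every early sample in each wall. Without 14 days replicate 1 the lateral difference was 3.17 with an adjusted p of 0.00336, so this array decided the call. On the 3 slides that held early and later times together, the level of 4 days minus that of the early time was 4.26, 4.05 and 0.82 in the dorsal and 1.07, 1.57 and 2.47 in the lateral wall. For 7 days the differences on these slides were 0.18, 3.64 and −0.67 in the dorsal and 2.78, 0.42 and 0.23 in the lateral wall. Th was thus above the early level of its own slide in 11 of these 12 differences, some of them small. The 12 are not independent, since both later times use the same early samples and the walls share arrays. Early Th was well above background in 5 of 7 dorsal and 6 of 7 lateral samples.

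The levels of Ddc, the decarboxylase that acts after Th, overlapped between late and early samples. Dorsal levels ran from 6.99 to 11.33 (median 7.40) in late samples, against 6.90 to 7.94 (median 7.14) in early samples. Lateral levels ran from 7.21 to 9.34 (median 8.07) in late samples, against 7.07 to 8.18 (median 7.14) in early samples. The 2 highest lateral samples were those of 7 days replicates 1 and 2, and the highest of all, dorsal 14 days replicate 3, had a lateral partner of 7.21 on the same array. Between late and early samples Ddc differed by 0.66 ± 0.57 in the dorsal (limma, adjusted p = 0.667) and 0.89 ± 0.32 in the lateral wall (adjusted p = 0.160). The mean over both Ddc probes gave 1.20 in the lateral wall, which passed the test narrowly (limma, adjusted p = 0.0433). The second probe, well above background in only 16 of 34 samples, gave 1.51 alone and did not pass (adjusted p = 0.238 over probes).

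Gch1, GTP cyclohydrolase 1, which makes the first step of tetrahydrobiopterin synthesis, was highest at 8 hours in both walls. Dorsal levels were 10.11 and 11.32 (8 hours), 6.53, 6.28 and 7.79 (1 day), 6.33 and 7.32 (2 days), 7.25, 6.70 and 6.15 (4 days), 6.18, 8.79 and 7.60 (7 days), and 10.41, 6.31, 6.36 and 6.30 (14 days). Lateral levels were 10.80 and 12.01 (8 hours), 6.74, 6.44 and 6.22 (1 day), 7.31 and 6.81 (2 days), 6.41, 6.56 and 6.24 (4 days), 6.08, 7.91 and 8.62 (7 days), and 9.61, 6.31, 6.43 and 6.30 (14 days). High levels were thus found at 8 hours and, in both walls, on 14 days replicate 1, the array of that time with low Th. Only 8 dorsal and 9 lateral samples of 17 were well above background. Low levels were of both kinds: the lateral sample of 1 day replicate 3 (6.22) was well above background and that of 1 day replicate 1 (6.74) was not.

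The change of Gch1 over the 6 times did not pass the F test of limma in the dorsal wall (adjusted p = 0.268) and passed it in the lateral wall (adjusted p = 0.0394). On the slide that held both, 7 days minus 8 hours was −3.11 in the dorsal and −2.78 in the lateral wall, and neither sample of 4 days on that slide was well above background. The lateral call held in 5 of 17 fits without 1 array (adjusted p up to 0.328 without 8 hours replicate 2), and the dorsal change was called without 14 days replicate 1 (adjusted p = 0.0251). Microglia markers had means of 13.1 and 13.02 in the dorsal and 14.4 and 14.8 in the lateral samples of 8 hours, and of 13.9 and 15.6 in the dorsal and lateral sample of 14 days replicate 1. The dorsal sample of 2 days replicate 1 had a microglia mean of 14.6 and Gch1 at 6.33. The part of these markers in the levels of Gch1 was not tested.

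**Figure D2:**
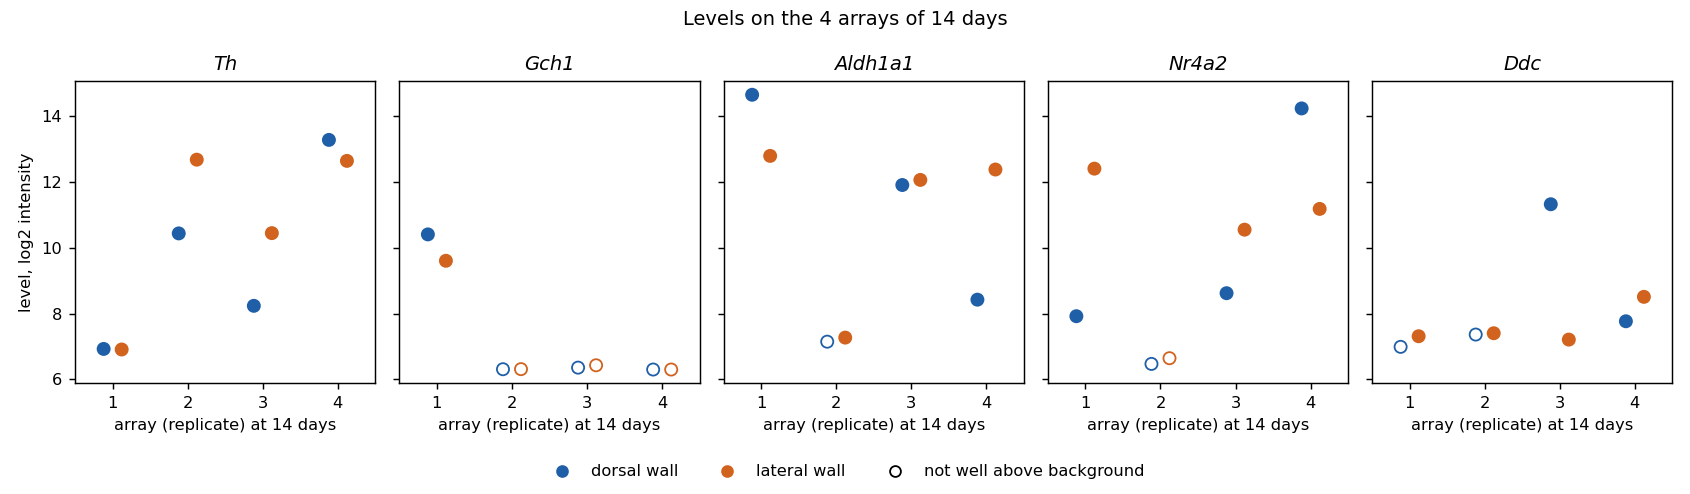
Log2 levels of Th, Gch1, Aldh1a1, Nr4a2 and Ddc on the 4 arrays of 14 days, with the dorsal sample left of the lateral sample. Replicate 1 had low Th (6.93 dorsal, 6.91 lateral) with high Gch1 (10.41 and 9.61) and Aldh1a1 (14.66 and 12.80), and replicate 2 had high Th (10.44 and 12.69) with low Aldh1a1 (7.15 and 7.27) and Nr4a2 (6.47 and 6.65).

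Slc18a2 loads dopamine and other monoamines into vesicles. Its dorsal levels ran from 6.88 to 9.74 (median 8.60) in late samples, against 6.51 to 8.21 (median 6.98) in early samples. Its lateral levels ran from 6.68 to 10.23 (median 8.40) in late samples, against 6.68 to 10.54 (median 8.60) in early samples. The lateral samples of 4 days, at 10.78, 9.71 and 9.74, were its highest group. Late minus early, it differed by 1.04 ± 0.56 in the dorsal (limma, adjusted p = 0.450) and −0.38 ± 0.60 in the lateral wall (adjusted p = 0.871).

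Slc6a3, the dopamine transporter of the plasma membrane, was near background throughout. It was well above background in 9 of 17 dorsal and 6 of 17 lateral samples, and in 0 of 3 dorsal samples of 4 days. Its levels lay between 6.19 and 7.72 over all samples. Its change with time was −0.31 ± 0.21 in the dorsal (limma, adjusted p = 0.551) and 0.30 ± 0.21 in the lateral wall (adjusted p = 0.598).

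Aldh1a1, a retinaldehyde dehydrogenase that also oxidizes the aldehyde formed from dopamine, spread widely among samples of 1 time. Its dorsal levels were 14.66, 7.15, 11.92 and 8.43 (14 days) and 7.27, 12.92 and 9.04 (7 days), against 7.12 to 11.83 (median 7.59) in early samples. Lateral levels were 12.80, 7.27, 12.07 and 12.39 (14 days) and 8.71, 7.11 and 8.69 (7 days), against 6.55 to 9.92 (median 7.09) in early samples. At 4 days it was low on all 3 arrays, at 6.95, 6.86 and 6.77 dorsally and 6.92, 6.72 and 6.60 laterally. High and low samples thus stood beside each other at 7 and 14 days, and the highest early sample of both walls was the array of 1 day that stood apart.

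The late minus early difference of Aldh1a1 was 1.92 ± 1.22 in the dorsal (limma, adjusted p = 0.532) and 2.37 ± 0.81 in the lateral wall (adjusted p = 0.135). Without 14 days replicate 2, an array that stood apart, the lateral difference was 3.01 with an adjusted p of 0.0043. The mean of 6 meningeal and fibroblast markers was 11.3, 8.4, 7.7 and 8.4 in the dorsal and 12.2, 8.8, 10.3 and 8.4 in the lateral samples of 14 days. At 7 days it was 11.04, 11.8 and 9.55 in the dorsal and 10.99, 12.3 and 7.35 in the lateral samples. Between late and early samples limma called 0 of these 6 markers (unadjusted p under 0.05 for 4 dorsally and 2 laterally). Their part in the levels of Aldh1a1 was not tested.

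Nr4a2 (Nurr1) is a nuclear receptor that is required for dopaminergic neurons of the midbrain and activates Th there. Its dorsal levels were 9.35 and 9.53 (8 hours), 7.74, 7.75 and 9.79 (1 day), 11.79 and 7.75 (2 days), 8.998, 8.54 and 10.21 (4 days), 9.32, 10.38 and 13.40 (7 days), and 7.92, 6.47, 8.62 and 14.25 (14 days). Lateral levels were 7.06 and 8.21 (8 hours), 7.81, 7.10 and 6.78 (1 day), 6.88 and 7.17 (2 days), 8.18, 8.00 and 10.27 (4 days), 12.28, 10.41 and 11.93 (7 days), and 12.41, 6.65, 10.56 and 11.19 (14 days). In the dorsal wall late and early samples overlapped. In the lateral wall 6 of 7 late samples lay above every early one, and the remaining one, 14 days replicate 2, lay below them all.

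Late minus early, Nr4a2 differed by 0.96 ± 1.13 in the dorsal wall (limma, adjusted p = 0.763) and by 3.57 ± 0.76 in the lateral wall, 11.9-fold (adjusted p = 0.0159). The lateral call was kept in 16 of 17 fits without 1 array and lost without 8 hours replicate 1 (adjusted p = 0.0553). On the slides that held both, the dorsal level of 7 days minus that of the early time was 3.96, −2.47 and 2.63, and the lateral one was 4.30, 5.40 and 3.24. The change of Nr4a2 over the 6 times did not pass the F test of limma in the dorsal (adjusted p = 0.864) or the lateral wall (adjusted p = 0.126). The lateral F test passed in 1 of 17 fits without 1 array.

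Etv1 (Er81), an ETS factor that is known to bind the Th promoter in olfactory bulb cells, rose in both walls. Its dorsal levels were 10.27 and 10.60 (8 hours), 10.09, 11.61 and 10.75 (1 day), 11.38 and 10.87 (2 days), 13.51, 14.39 and 14.08 (4 days), 13.57, 13.41 and 13.92 (7 days), and 12.88, 11.27, 12.15 and 13.49 (14 days). Lateral levels were 11.67 and 11.40 (8 hours), 7.90, 11.46 and 11.35 (1 day), 12.89 and 12.47 (2 days), 14.61, 13.97 and 14.33 (4 days), 14.00, 13.88 and 13.97 (7 days), and 13.50, 12.68, 13.16 and 13.38 (14 days). In each wall 6 of 7 late samples lay above every early sample, and the exception was 14 days replicate 2. The samples of 4 days lay above all early ones in both walls, and their mean was the highest of the 6 times (13.99 ± 0.45 dorsal, 14.30 ± 0.32 lateral, SD, n = 3 each).

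The late minus early difference of Etv1 was 2.25 ± 0.35 in the dorsal wall, 4.76-fold (limma, adjusted p = 0.0041), and 2.08 ± 0.47 in the lateral wall, 4.23-fold (adjusted p = 0.0207). The dorsal call held in 17 of 17 fits without 1 array. The lateral call held in 12 of 17, with an adjusted p of up to 0.0638 without 1 array of 8 hours, 2 days or 7 days, namely 8 hours replicate 1 or 2, 2 days replicate 1 or 2, or 7 days replicate 1. On the slides that held both, all 6 differences of 4 or 7 days from the early time were positive, from 2.13 to 3.64 in the dorsal and from 1.105 to 2.80 in the lateral wall. The change over the 6 times passed the F test in the dorsal (adjusted p = 0.0082) and the lateral wall (adjusted p = 0.0214), where 3.51% and 4.68% of all genes were called. This lateral call held in 13 of 17 fits without 1 array and was lost without 8 hours replicate 1 or 2 or 4 days replicate 1 or 3 (adjusted p up to 0.0546).

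Meis2, a homeodomain cofactor of Pax6 and Dlx2 in olfactory bulb neurogenesis, was bright in every sample. Its dorsal levels were 15.07 and 14.88 (8 hours), 13.24, 15.13 and 14.98 (1 day), 15.14 and 15.12 (2 days), 14.92, 15.73 and 16.10 (4 days), 15.01, 15.42 and 15.72 (7 days), and 13.26 and 15.82 on 14 days replicates 2 and 4. Lateral levels were 14.28 and 14.12 (8 hours), 14.52, 14.44 and 14.04 (1 day), 14.56 and 14.08 (2 days), 15.98, 15.85 and 16.68 (4 days), 15.71, 15.88 and 15.94 (7 days), and 16.27 and 15.82 on 14 days replicates 2 and 4. Spots flagged as outliers by the scanner software left no value of this probe on 14 days replicates 1 and 3, so its fit used 15 arrays. Dorsally the groups overlapped, and laterally every sample from 4 days on lay above every earlier sample.

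Late minus early, Meis2 differed by 0.11 ± 0.49 in the dorsal wall (limma, adjusted p = 0.947) and by 1.66 ± 0.22 in the lateral wall, 3.16-fold (adjusted p = 0.0017). The lateral call held in 17 of 17 fits without 1 array. A second Meis2 probe, which was measured on 14 days replicates 1 to 3, gave a lateral difference of 1.58 (adjusted p = 0.0029 over probes). The lateral change over the 6 times also passed the F test (adjusted p = 0.0067, range of time means 1.97).

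Klf7, a Krüppel-like factor that is known to act in the maturation of olfactory bulb dopaminergic neurons, spread widely among early lateral samples. Its dorsal levels ran from 10.78 to 14.48 (median 13.28) in late samples, against 10.61 to 12.99 (median 11.80) in early samples. Its lateral levels ran from 11.75 to 14.18 (median 13.70) in late samples, against 10.05 to 15.92 (median 12.31) in early samples. The highest of these, 15.92, came from 1 day replicate 1, an array that stood apart. The late minus early difference was 1.00 ± 0.55 in the dorsal (limma, adjusted p = 0.453) and 1.099 ± 0.76 in the lateral wall (adjusted p = 0.593), and 1.89 in the lateral wall without both arrays that stood apart, which passed the test.

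**Figure D3:**
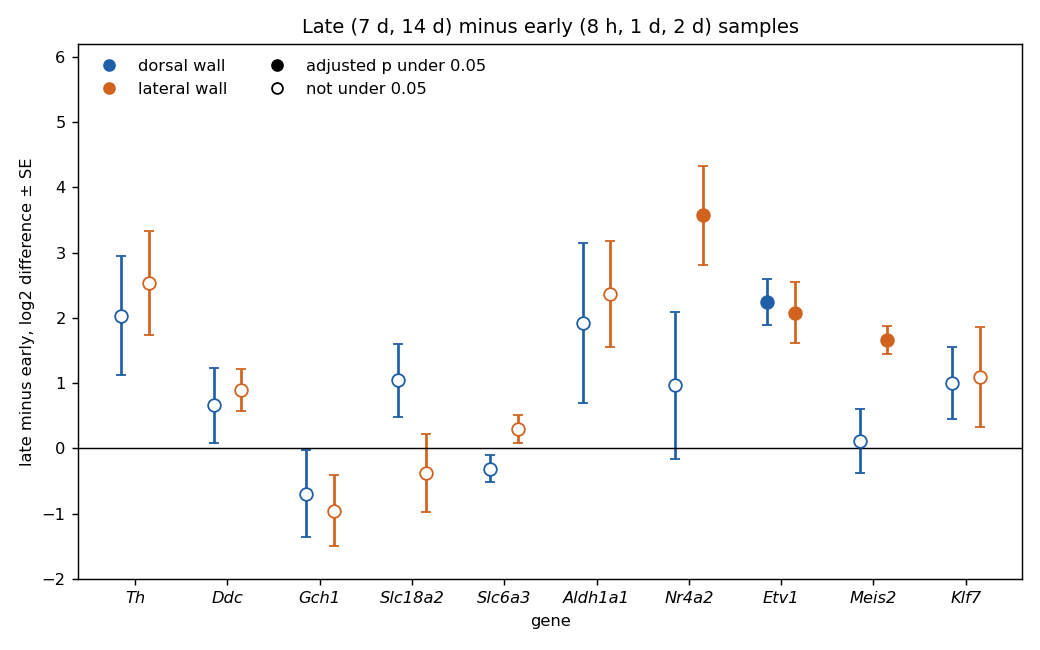
Late minus early difference (log2, points with SE bars) of the 10 genes in the dorsal and lateral wall, with filled points for an adjusted p under 0.05. In the dorsal wall Etv1 (2.25) is filled, and in the lateral wall Nr4a2 (3.57), Etv1 (2.08) and Meis2 (1.66).

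Some markers of neuroblasts and mature neurons rose as well. Of the 6 neuroblast markers 3 rose in the dorsal and 6 in the lateral wall, and of 6 mature neuron markers (Rbfox3, Snap25, Syt1, Syp, Nefl and Camk2a) 1 rose in the dorsal and 4 in the lateral wall. The neuroblast mean ran from 11.7 to 14.9 in late and from 9.82 to 12.4 in early dorsal samples, and from 14.45 to 14.94 in late and from 9.67 to 13.98 in early lateral samples. The mature neuron mean ran from 9.37 to 12.3 in late and from 8.37 to 10.3 in early dorsal samples, and from 10.2 to 12.6 in late and from 8.58 to 9.36 in early lateral samples. Of 6 markers of glutamatergic neurons limma called 0 in either wall (unadjusted p under 0.05 for 3 dorsally and 0 laterally). Their median difference was −2.29 dorsally and 0.0001 laterally. Their dorsal mean ran from 6.88 to 8.19 in late and from 8.31 to 11.00 in early samples. Other lists of 6 markers moved as well. Of radial glia markers 2 fell in each wall, of astrocyte markers 3 fell and 1 rose in the dorsal and 2 fell and 1 rose in the lateral wall, and of oligodendrocyte markers 1 rose in the dorsal and 2 in the lateral wall. Of erythroid markers 2 fell in the dorsal wall, and of ependymal markers 2 fell in the lateral wall. The astrocyte mean ran from 10.1 to 13.9 in late and from 13.1 to 14.3 in early dorsal samples, and from 8.90 to 13.4 in late and from 10.4 to 12.9 in early lateral samples. The part of these markers in the rise of Nr4a2, Etv1 and Meis2 was not tested.

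The second question was how the walls differed. Over the mean of the 6 times 0 of the 10 genes passed limma's test, against 2.38% of all genes (1.29% higher and 1.09% lower in the dorsal wall), and 3 of 10 had an unadjusted p under 0.05, as had 4313 of 26403 genes tested. In early samples Slc6a3 was higher in the dorsal wall, 1 of 10 genes against 1.97% of all genes called higher there (3.47% in either direction). In late samples 0 of 10 were called by limma, against 0.00379% of all genes, and 1 of 10 had an unadjusted p under 0.05, as had 1949 of 26403. The median dorsal minus lateral difference of the 10 genes was −0.07 over the 6 times, against 0.02 for all genes. Th, the defining gene of the dopaminergic phenotype, differed by 0.25 ± 0.41 (adjusted p = 0.819) and was higher in the dorsal sample on 8 of 17 arrays.

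**Figure D4:**
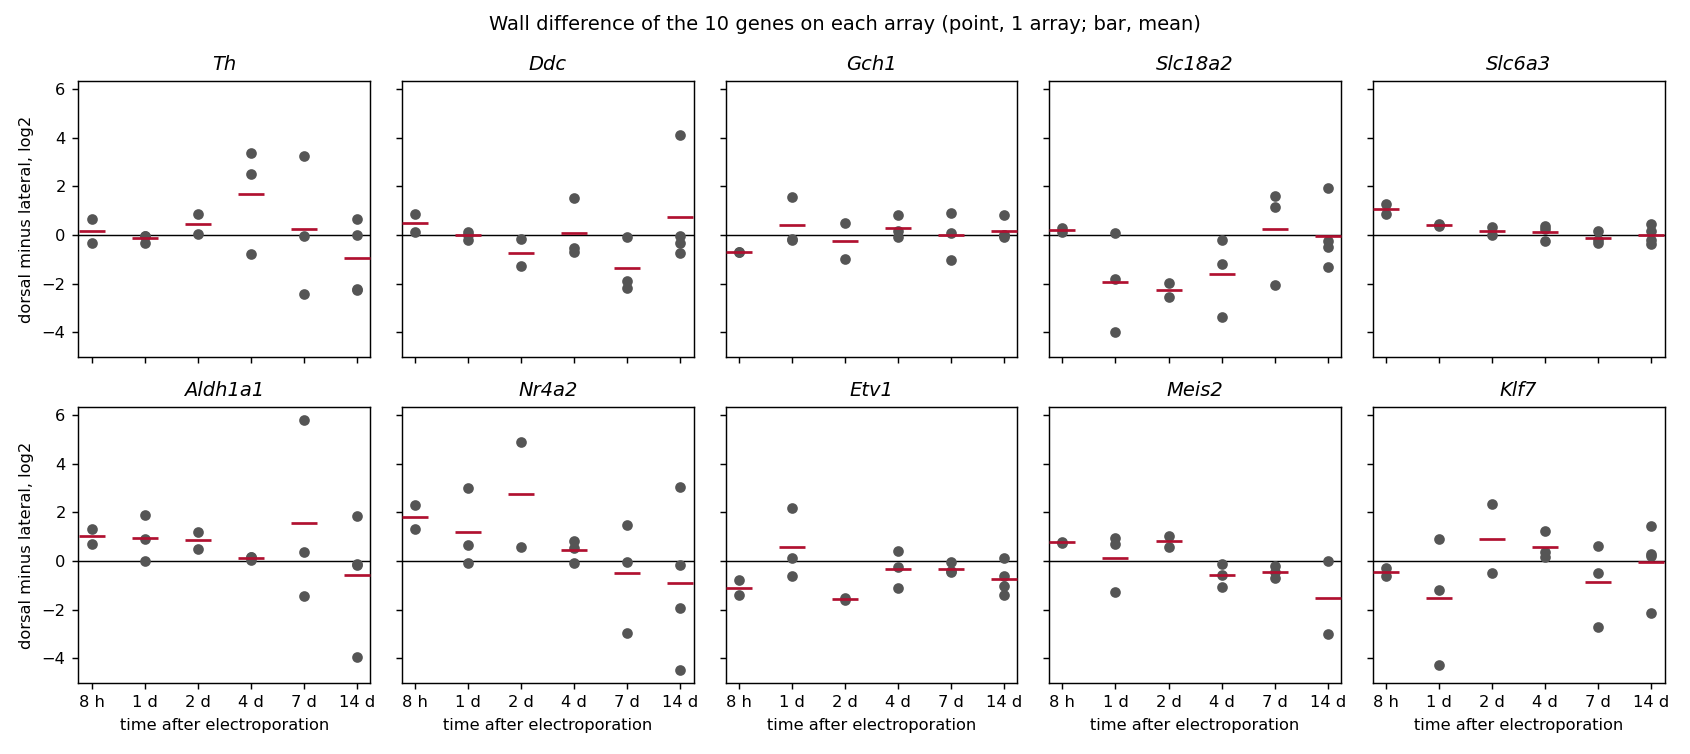
Dorsal minus lateral difference (log2) of the 10 genes on every array by time, with a bar at the mean of a time. Points above 0 are higher in the dorsal wall, and Slc6a3 lies above 0 on all 7 early arrays, by only 0.0026 on 2 days replicate 1. Meis2 lies above 0 on all arrays of 8 hours and 2 days and on 2 of 3 arrays of 1 day. It lies below 0 on all measured arrays of 4, 7 and 14 days, by only −0.0055 on 14 days replicate 4.

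The early difference of Slc6a3 was small and close to background. Dorsal levels were 7.72 and 7.08 (8 hours), 7.44, 6.78 and 6.90 (1 day) and 6.53 and 6.70 (2 days), against lateral levels of 6.42 and 6.201 (8 hours), 7.06, 6.33 and 6.49 (1 day) and 6.52 and 6.37 (2 days). The dorsal sample was the higher one on 7 of 7 arrays, by 0.55 ± 0.13 (limma, adjusted p = 0.0440), and the walls' ranges overlapped. The difference was largest on the 2 arrays of 8 hours (1.29 and 0.87). On 2 days replicate 1 it was only 0.0026, with neither sample well above background. Of the early samples 6 of 7 dorsal and 3 of 7 lateral ones were well above background, and the call held in 4 of 17 fits without 1 array (adjusted p 0.0395 to 0.215). The mean of 6 radial glia markers was 14.5 to 15.1 in early dorsal and 13.1 to 14.2 in early lateral samples, and 3 of the 6 were higher in the dorsal wall. Of 6 markers of glutamatergic neurons 3 were higher in the dorsal wall too, with a mean of 8.31 to 11.00 in early dorsal and 6.81 to 8.67 in early lateral samples. Astrocyte markers (2 of 6 called higher in the dorsal wall) had means of 13.1 to 14.3 in early dorsal and 10.4 to 12.9 in early lateral samples, and erythroid markers (2 of 6) had means of 10.2 to 12.8 in early dorsal and 7.50 to 10.4 in early lateral samples. Of oligodendrocyte markers 1 of 6 was called higher in the dorsal wall, but the median difference of the list was −0.50. Oligodendrocyte means were 9.61 to 12.8 in early dorsal and 9.99 to 11.3 in early lateral samples. The part of these lists in the difference of Slc6a3 was not tested.

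The other genes of synthesis and transport showed no call between the walls. Slc18a2 differed by −0.90 ± 0.37 over the 6 times (limma, adjusted p = 0.252) and by −1.33 ± 0.57 in early samples (adjusted p = 0.249). Its second probe gave −1.98 over the 6 times, and the mean over both probes passed the test with −1.44 (adjusted p = 0.0343) and, in early samples, −2.06 (adjusted p = 0.0394). At 4 days its lateral level was higher on 3 of 3 arrays and at 2 days on 2 of 2, whereas at 8 hours its dorsal level was higher on 2 of 2. Ddc was higher in the lateral sample on 3 of 3 arrays of 7 days, by a mean of 1.37 ± 1.14 (SD), and differed by −0.13 ± 0.33 over the 6 times (adjusted p = 0.893). Aldh1a1 was higher in the dorsal sample on 7 of 7 early arrays, by 0.94 ± 0.76 (adjusted p = 0.582).

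Among the factors, Nr4a2 was higher in the dorsal sample on 6 of 7 early arrays, by 1.91 ± 0.81 (limma, adjusted p = 0.238), and in the lateral sample on 5 of 7 late arrays, by a difference of −0.70 ± 0.81 (adjusted p = 0.901). Etv1 was higher in the lateral sample on 13 of 17 arrays, with a difference of −0.57 ± 0.19 over the 6 times (adjusted p = 0.153). Without 1 day replicate 1, whose lateral Etv1 was 7.90, this became −0.71 with an adjusted p of 0.0200. With all arrays it was also called with median centring (−1.30, adjusted p = 0.0069) and with slide as a random block (−0.56, 0.0208). The call thus depended on that array and on the processing. Meis2 was higher in the dorsal sample on 2 of 2 arrays at 8 hours, 2 of 3 at 1 day and 2 of 2 at 2 days. The exception was 1 day replicate 1 (−1.28), an array that stood apart. Meis2 was higher in the lateral sample on 3 of 3 arrays at 4 days, 3 of 3 at 7 days and 2 of 2 at 14 days. Of the 2 at 14 days, replicate 2 (−3.01) stood apart and replicate 4 differed by only −0.0055. The second Meis2 probe differed from 4 days on: the dorsal sample was the higher one at 4 days replicate 2 (15.18 dorsal, 15.11 lateral), 7 days replicate 3 (15.48 dorsal, 15.25 lateral) and 14 days replicate 1 (15.29 dorsal, 14.84 lateral).

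Whether the wall difference itself changed between early and late samples was tested as an interaction. By limma 0 of the 10 genes passed, against 0.136% of all genes (0.0265% higher and 0.11% lower), and 3 of 10 had an unadjusted p under 0.05, as had 2586 of 26403. The 3 were Nr4a2 (−2.61 ± 1.14, adjusted p = 0.486), Meis2 (−1.55 ± 0.54, adjusted p = 0.386) and Slc6a3 (−0.61 ± 0.19, adjusted p = 0.298). The rise of Nr4a2 and Meis2 in the lateral wall was therefore not shown to differ from their change in the dorsal wall. For Etv1 the interaction was 0.17 ± 0.42 (adjusted p = 0.920).

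Genes around the 10 in the pathway were taken from lists. Of 13 other factors of periglomerular dopaminergic fate, 6 rose and 0 fell in the dorsal wall (median 1.05), among them the homeobox genes Dlx5 (4.23 ± 0.34, limma, adjusted p = 2.17e-05), Dlx2 (3.31 ± 0.45) and Dlx1 (3.56 ± 0.62) and the zinc finger genes Sp8 (3.27 ± 0.47) and Tshz1 (1.43 ± 0.31). In the lateral wall 4 rose (median 1.11): Sp8 (3.78 ± 0.38, adjusted p = 0.000105), Dlx5 (3.21 ± 0.64), Zic1 (2.54 ± 0.56) and Tshz1 (2.11 ± 0.27). Between the walls, over the 6 times, Zic1 was higher in the dorsal wall (2.25 ± 0.34) and Dlx2 (−1.98 ± 0.12), Dlx1 (−1.90 ± 0.28) and Tshz1 (−0.78 ± 0.19) were higher in the lateral wall. The interaction of Dlx2 was 2.97 ± 0.25 (adjusted p = 0.000948).

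Genes of the GABAergic phenotype, which periglomerular dopaminergic cells share, were a further list. Of 6, 3 rose in the dorsal wall (median 3.19), Gad1 (5.07 ± 0.53) and Gad2 (3.43 ± 0.64), which make GABA, and Slc32a1 (2.70 ± 0.46), which loads it into vesicles. The same 3 rose in the lateral wall (median of the list 2.94), with Gad1 at 4.23 ± 0.43, Gad2 at 2.86 ± 0.58 and Slc32a1 at 3.02 ± 0.52, and so did the neuropeptide gene Npy (3.56 ± 0.71). Gad2 was higher in the lateral wall over the 6 times (−1.04 ± 0.23).

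Few genes that serve dopamine beside or after its synthesis were called. Among the cofactor genes Spr, the last enzyme of tetrahydrobiopterin synthesis, was higher in the dorsal wall over the 6 times (0.59 ± 0.13, limma, adjusted p = 0.0387). Between late and early samples limma called 0 of 6 measured dopamine receptor and signalling genes (unadjusted p under 0.05 for 1 in each wall) and 0 of 7 measured midbrain dopaminergic factors (1 dorsally and 0 laterally). Between the walls over the 6 times it also called 0 genes of these lists, with an unadjusted p under 0.05 for 1 receptor or signalling gene and 3 midbrain factors. Of 8 genes of other monoamines, Hdc, which makes histamine (−3.23 ± 0.57, adjusted p = 0.0065) and Slc6a4, the serotonin transporter (adjusted p = 0.0129), fell in the lateral wall, where Slc6a4 was well above background in only 9 of 17 samples, and Slc18a1, the other vesicular monoamine transporter, was higher in the lateral wall over the 6 times (−0.59 ± 0.13).

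Across the 34 samples genes whose levels ran closely with those of Th were A1cf (r = 0.81), an unnamed transcript (0.79), Hs3st2 (0.78) and Kcnt1 (0.77). The 8 other genes of the 10 with a value in all samples had correlations with Th between −0.39 (Gch1) and 0.34 (Etv1). Among all pairs of the 10 genes the highest correlation was that of Etv1 and Meis2 (r = 0.68, n = 30), followed by Nr4a2 and Meis2 (0.56), and the lowest that of Slc6a3 and Etv1 (−0.47, n = 34). These correlations describe the samples, 2 of which share each array.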

How the data were processed

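RNA of GFP-positive sorted cells was amplified by global PCR (SuperAmp) and hybridised to two-colour Agilent arrays, per the labels' protocols. Dorsal samples were in Cy3 and lateral samples in Cy5 on all 17 arrays. The deposited scanner files hold spot intensity values (mean signal, median background and processed signals) and a log10 ratio of red over green, made with Agilent Feature Extraction 10.7.3.1 or 10.5.1.1 per the file headers. The deposited value table holds log2 ratios of the authors; set against the scanner values it ran as Cy3 over Cy5, and it served as an alternative for wall differences only. No source used here gives its normalization.

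Control spots and outlier-flagged spots were left out, background was corrected with normexp (offset 50), ratios were normalized within arrays by loess and channels between arrays by Aquantile, in limma 3.58.1 (R 4.3.3, data.table, version 1.17.8). A probe was kept where the dorsal or the lateral signal was well above background on 2 or more arrays (36771 of 41174 probes), spots of a probe were averaged, and a gene was represented by its probe of the highest mean signal. Names came from RefSeq through the probe's accession (26876 probes), symbol (2894) or synonym (347), and 11057 probes kept the name in the files. Wall differences were fitted on log ratios and time changes within each wall on log2 levels, with all 17 arrays and 6 time means, and eBayes with Benjamini-Hochberg adjustment over all genes. The fits were checked on simulated data. The number of arrays per time limits the precision, and p-values measure the spread between these arrays. Alternatives covered normalization, background, filter, probe choice, slide, replicate number and leaving out arrays. All 10 genes are named with values. Genes of other lists are named where they passed the threshold, at most 5 per list and comparison, and likeness to Th names genes among the 5 highest correlations. Some genes that these rules select are not reported here. The genes and lists were chosen with earlier results of these data known. Sequences and figures were handled in Python 3.11.15 (pandas 2.3.3, matplotlib 3.10.9).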

Additional observations from a re-analysis of the deposited data

Results flagged for a closer look

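Of 18 groups of 4 samples at 14 days that were tested, 4 held a sample whose gap to its neighbour exceeded the critical share of the group's range. Chance alone gives one in about 5% of independent groups. These groups share the same 4 arrays and are not independent, so the 4 cannot be weighed against that share. Gch1 was far above the other samples in both walls on replicate 1, at 10.4 in the dorsal and 9.61 in the lateral sample, where the other 3 arrays lay between 6.30 and 6.43 in both walls. In each wall only 1 of these 4 samples, that of replicate 1, was well above background, so background limits the spread of the others. Ddc stood above the others in the lateral sample of replicate 4, at 8.51, against 7.21 to 7.41 on the other 3 arrays. Aldh1a1 was low in the lateral sample of replicate 2, at 7.27, against 12.07 to 12.80 on the other 3 arrays.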

How the results depend on the processing

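The calls of Etv1 in the dorsal wall and Meis2 in the lateral wall (late minus early) held in every fit without 1 array. Of 2230 values of single genes under alternatives, 2148 kept their side of the threshold, 68 of them with a change of sign in an uncalled value, 50 lost the call, 32 gained it and 0 called ones reversed. The lateral rise of Etv1 lost its call with quantile normalization (adjusted p = 0.0550) and processed signals (0.0647). The early wall difference of Slc6a3 lost its call with quantile normalization (limma, adjusted p = 0.255), processed signals (0.142), the stricter filter (0.0816) and the value table (0.219). Its log2 differences there were 0.43, 1.60, 0.55 and 1.22, in this order. The lateral F test of Gch1 lost its call with median centring and processed signals. With processed signals the lateral F tests of Etv1 and Meis2 lost it too. The causes were not tested. Median centring moved the median wall difference of all genes to −0.209, and with it Etv1 (−1.30), Slc18a2 (−1.23) and Meis2 (−1.25) were called lower and Slc6a3 (0.40) higher in the dorsal wall over the 6 times. With slide as a fixed block (7 days against 8 hours and 2 days, chosen after seeing the data), Etv1 gave 2.90 (dorsal) and 1.85 (lateral), Nr4a2 4.44 and Meis2 1.66, all called.

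Replicate numbers were not shown to pair the samples. Deviations of same-numbered samples correlated by 0.03 on average over 36 pairs (−0.13 to 0.32), and those of differently numbered ones by −0.01 over 83. At 2, 4 and 7 days same-numbered arrays shared a slide, so this mean over all times cannot exclude a pairing there. With a replicate block the lateral calls of Etv1 (adjusted p = 0.0861) and Nr4a2 (0.0513) and the early one of Slc6a3 (0.149) were lost, as were the lateral F tests of Gch1 (0.119) and Etv1 (0.0779), and the counts of genes called were 169 for the wall difference over 6 times, 281 early, 25 late and 810 for the lateral change over 6 times.

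Counts of all genes called moved as follows. The wall difference over 6 times (629, 341 higher and 288 lower) gave 6113 with median centring (1691 higher and 4422 lower), 237 with processed signals, 3290 with slide as a random block, 1379 without both arrays that stood apart and 282 from the value table. Early (919, 520 higher and 399 lower), these gave 1662 (364 higher and 1298 lower), 433, 1910, 1779 and 346. Late (1), median centring gave 1621, slide as a random block 18, kept outlier spots 5, the mean over probes 2, and quantile normalization, no filter and leaving out both arrays 0. The interaction (36) gave 18 with median centring, 7 with processed signals, 102 with the random block, 73 without both arrays, 5 from the value table and 0 with the fixed block. Late minus early gave 1424 (dorsal, 777) and 2287 (lateral, 1277) with the fixed block, and laterally 1917 with the random block and 2661 without both arrays. Over 6 times the random block gave 7619 (dorsal, 926) and 9398 (lateral, 1236), and leaving out both arrays 2779 laterally; its consensus correlation was negative. Leaving out 1 array gave 213 to 1150 for the wall difference over 6 times, 271 to 1480 early, 0 to 13 late, 15 to 92 for the interaction, 356 to 972 dorsally and 803 to 2152 laterally for late minus early, and 353 to 1701 and 674 to 2016 over 6 times. Genes near background, such as Slc6a3 and Gch1, are limited by signal.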
